A study of Mus musculus with 24 samples.

Results

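Unprocessed pseudogenes are copies of genes that arose by duplication of DNA and were annotated as no longer coding for the parent protein. The genes described here are those that the deposited files class as unprocessed or transcribed unprocessed pseudogenes and that held at least 60 reads summed over all 24 files, with symbols ending in -ps and the stretch of chromosome 12 from 18 to 25 Mb left out. Of 53465 genes in the files, 2796 belonged to the 2 classes and 2111 of these were listed at 0 reads in every animal. In GENCODE M21, 175 genes of the classes passed the read minimum, 38 were removed for their symbol and 16 for their position, which left 121 members (82 unprocessed and 39 transcribed unprocessed). The members were thus chosen by their total reads over both strains, so their abundance is a product of the choice.

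The study sequenced brain RNA of 12 mice from a pair of wild-derived inbred strains, 6 animals of CAST/EiJ and 6 animals of WSB/EiJ, which were compared because infarcts differ in size after arterial occlusion. The labels name no sex, age, treatment or dissection for the animals, and all library indexes of CAST come before those of WSB, so index and strain cannot be told apart. Nothing in the labels beyond the animal numbers says how the 6 animals of a strain were kept apart, and p-values measure the spread between these samples. Gene reads over 2 lanes numbered from 32982569 to 46513232 per animal. Summed markers of neurons (4054 to 5418 CPM, counts-per-million scaled to the library), astrocytes, oligodendrocytes and microglia were present in every animal. A gene listed at 0 in these files cannot be read as absent, since Cbln1, a cerebellar granule cell marker, is listed at 0 in every animal. CAST_142 stood apart with a summed level of cerebellar granule cell markers of 677 CPM against at most 23.3 in the other animals, and WSB_100 with an olfactory bulb marker sum of 39.6 CPM against at most 13.9.

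When a stretch of DNA is duplicated, the copy keeps the exons and introns of its parent and often stays close to it, unlike a processed pseudogene, which is a reverse-transcribed and reinserted messenger RNA without introns. Freed from selection on the protein, such a copy gathers stop codons and frameshifts, and inbred strains can differ in whether a copy is present, how often it is repeated and whether it is transcribed. Mitochondrial DNA can also be inserted into a nuclear chromosome, and the inserted genes are annotated as unprocessed pseudogenes because they carry no mark of reverse transcription.

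The annotated structure of the members was compared with the label of gene duplication. A parent was taken to be the protein-coding gene whose GENCODE M21 transcripts gave the best match to the member, with at least 200 aligned bases and at least 70% identity. Of 121 members, 105 had such a parent, and these had 91 different parents. For 78 members a nuclear parent matched at least 50% of the transcript, with a median identity of 93.2% (75.7% to 99.9%). Of these parents, 37 lay within 1 Mb of the member, 16 of them within 100 kb, while 17 lay farther away on the same chromosome and 24 on another chromosome. More than 1 exon was annotated for 107 members, with a median of 4 and a maximum of 26. Of 74 members with a coding alignment to such a parent, 38 held an in-frame stop codon, 56 a gap of under 30 bases that shifts the frame, and 61 at least 1 of these defects. The remaining 13 had neither in the aligned part.

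Several members go against the label or do not bear on it. A set of 7 was copied from mitochondrial genes, 16 had no parent by the rule, and 20 matched their parent over under 50% of the transcript. The members Gm5512, Gm20775, Gm4759, Gm8995 and Kdm4dl each had 1 exon although their parents have more (13 in Rmnd1, 3 in Rmi1, 2 in Gvin1 and 2 in Kdm4d). The parents of Gm5512 and Gm20775, Rmnd1 and Rmi1, lie on another chromosome. Gm4759 and Gm8995 lie within 1 Mb of their parent Gvin1, and Kdm4dl within 1 Mb of Kdm4d. For Gm4759, Gm8995 and Kdm4dl the exon count is thus weak ground against the label. Some members with more than 1 exon had far fewer exons than a parent on another chromosome that matched nearly the whole transcript. Examples are Gm232 (3 against 18 in Gtf3c3) and Gm15753 (2 against 12 in Sp110). Other members kept the count, such as Gm11735 with 9 exons and its parent St6galnac1 with 9.

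Strains were compared with edgeR's quasi-likelihood test over all 18425 genes that passed an expression filter, and a gene was called at a Benjamini-Hochberg adjusted p under 0.05. Of the 121 members, 102 were tested and 19 were not. The test called 35 members higher in CAST (21.5% of all genes tested were called higher) and 38 lower (21.2% of all genes tested), and 29 were not called. Together 73 of 102 members were called (71.6%) against 42.7% of all genes tested. A called difference of at least 2-fold was found for 47 members (46.1%, of which 23 were higher and 24 lower in CAST), against 12.2% of all genes tested. Ranges of CPM lay apart between the strains, without overlap, for 62 members (60.8%), against 27.1% of all genes tested. The median absolute log2 fold change was 0.91 over the members tested and 0.22 over all genes tested, while the median signed log2 fold change was 0.03 and 0.005. The members' median absolute change lies far below both the fitted value and the bound of Gm4856, the member listed at 0 in CAST, and does not move with the choice between them. A member of few reads can pass the filter through the strain in which it is high, so these counts describe the members tested and support nothing further. Processed pseudogenes that met the same read minimum gave close values, with 572 of 852 called (67.1%) and 38.5% called at 2-fold or more, and among protein-coding genes 39.3% were called and 7.46% at 2-fold or more.

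**Figure D1:**
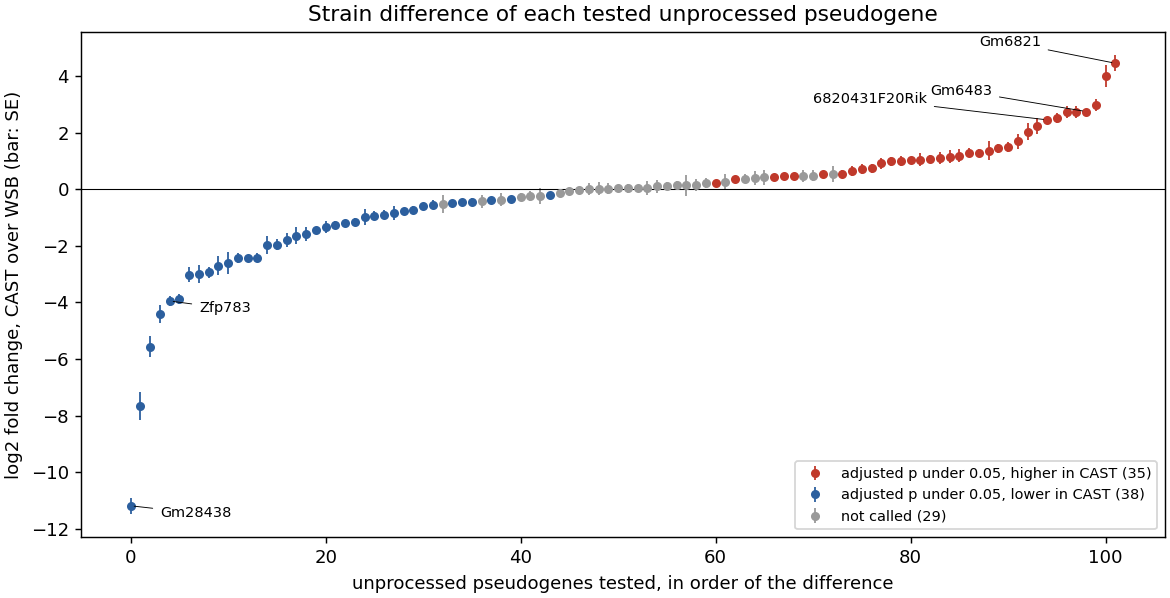
Each point is 1 of the 102 members tested, placed from left to right in the order of its log2 fold change of CAST over WSB (vertical axis), with a bar for the standard error (SE) and colour for the call. The 38 members lower in CAST reach from slight differences down to Gm28438 at -11.19, and the 35 higher ones reach up to Gm6821 at 4.46.

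Reads in these members made up a small share of all gene reads. The share was 0.0307% to 0.0357% in CAST and 0.0340% to 0.0382% in WSB, and the ranges overlapped. Summed over all 121 members, the level was 330 ± 11.4 CPM in CAST against 369 ± 12.9 CPM in WSB (SD, n = 6 animals each). Copies share sequence with each other and with their parents, and 44 members had at least 50% of the 32-base words of their transcript in transcripts of other genes. Alignments counted as not unique made up 15.6% to 16.1% of all counted alignments in CAST and 16.99% to 17.5% in WSB, ranges that did not overlap, and their part in the differences below was not tested. In bulk brain RNA, fewer cells of a type and less RNA per cell cannot be told apart in any of these values.

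The largest difference among the members was in an insertion of mitochondrial DNA on chromosome 1. In GRCm38, 7 members lie side by side on the minus strand of chromosome 1 between 24611535 and 24616197, and each is a copy of a mitochondrial gene for a subunit of the respiratory chain or of ATP synthase. Gm28439, Gm10222 and Gm28438 match mt-Nd4, mt-Nd4l and mt-Nd3 of complex I, Gm28437, Gm28661 and Gm29216 match mt-Co3, mt-Co2 and mt-Co1 of cytochrome c oxidase, and Gm10925 matches mt-Atp6. In 5 of the 7 the aligned sequence was identical to the mitochondrial gene. The other 2 differed at a single base each, T3C in Gm28438 and A1066T in Gm29216, written as the base of the mitochondrial gene, its position from 1 at the start of that gene, and the base of the copy. The stretches around these bases are shown because they hold every difference between the annotated insertion and the mitochondrial genes over the aligned parts. Capitals mark the base that differs, and the transcripts are those of GENCODE M21.
Gm28438: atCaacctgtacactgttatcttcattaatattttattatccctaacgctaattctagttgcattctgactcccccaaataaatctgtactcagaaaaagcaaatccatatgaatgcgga
mt-Nd3: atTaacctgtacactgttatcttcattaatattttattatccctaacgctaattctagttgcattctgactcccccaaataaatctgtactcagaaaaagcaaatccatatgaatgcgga
Gm29216: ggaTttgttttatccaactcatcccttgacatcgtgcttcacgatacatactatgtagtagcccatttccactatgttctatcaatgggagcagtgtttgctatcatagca
mt-Co1: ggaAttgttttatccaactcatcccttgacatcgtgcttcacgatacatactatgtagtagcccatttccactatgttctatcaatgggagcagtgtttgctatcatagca

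Reads of Gm28438, the mt-Nd3 copy at 24612775 to 24613119, were counted almost only in WSB. Of the 32-base words of Gm28438, 99.0% also occur in other transcripts. Its level was 29.7, 31.9 and 43.8 CPM (lowest, median and highest animal) in WSB. In CAST 4 animals were at 0 and the highest stood at 0.0491 CPM, with 3 reads over 2 animals against 8147 reads in WSB. The ratio of WSB to CAST was 2914, with a 95% counting interval of 997 to 14135 that covers counting error only. The fitted log2 fold change was -11.19 (SE 0.28, edgeR adjusted p = 3.98e-12), and -12.13 when CAST_202, which held 2 of the 3 reads, was left out. Per kilobase of its 345-base transcript Gm28438 stood at 99.4 CPM in WSB, the highest level of any member in that strain.

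The neighbours of Gm28438 differed less, and not to the same degree. Gm28661, the mt-Co2 copy, ranged over 0.324, 0.52 and 0.717 CPM in CAST and 6.69, 7.48 and 9.20 CPM in WSB (lowest, median and highest), a log2 fold change of -3.88 (SE 0.17, adjusted p = 5.62e-10). The copies of mt-Atp6 (Gm10925, -1.45), mt-Co1 (Gm29216, -1.34) and mt-Co3 (Gm28437, -1.19) were also lower in CAST, and each had separate ranges. Gm28439, the mt-Nd4 copy, was lower by a log2 fold change of -0.39 (SE 0.09). Gm10222, the mt-Nd4l copy that lies next to Gm28438, was not called, at 1.73 ± 0.219 CPM in CAST against 1.70 ± 0.461 CPM in WSB (SD, n = 6), a log2 fold change of 0.04 (SE 0.17). Within WSB the mt-Co1 copy fell into 2 ranges, 5.44 and 6.03 CPM in WSB_135 and WSB_147 and 11.3 to 14.1 CPM in the other 4, all above the 3.66 to 4.36 CPM of the CAST animals.

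Over all 7 mitochondrial copies the summed level was 13.7 ± 0.941 CPM in CAST against 69.7 ± 10.2 CPM in WSB. Gm28438 alone held 49.2% of that sum in WSB and 0.0887% in CAST. Without it the sums were 13.7 CPM in CAST against 35.4 CPM in WSB, and the ranges (12.8 to 15.4 and 27.9 to 43.7) stayed apart. All 37 genes of the mitochondrial genome itself are listed at 0 reads in every animal, so the level of the mitochondrial genes in these brains cannot be set beside the copies. Of the 32-base words of the 7 copies, 97.2% to 100% also occur in other transcripts. Whether reads counted for the copies came from the insertion or from mitochondrial RNA was not tested.

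**Figure D2:**
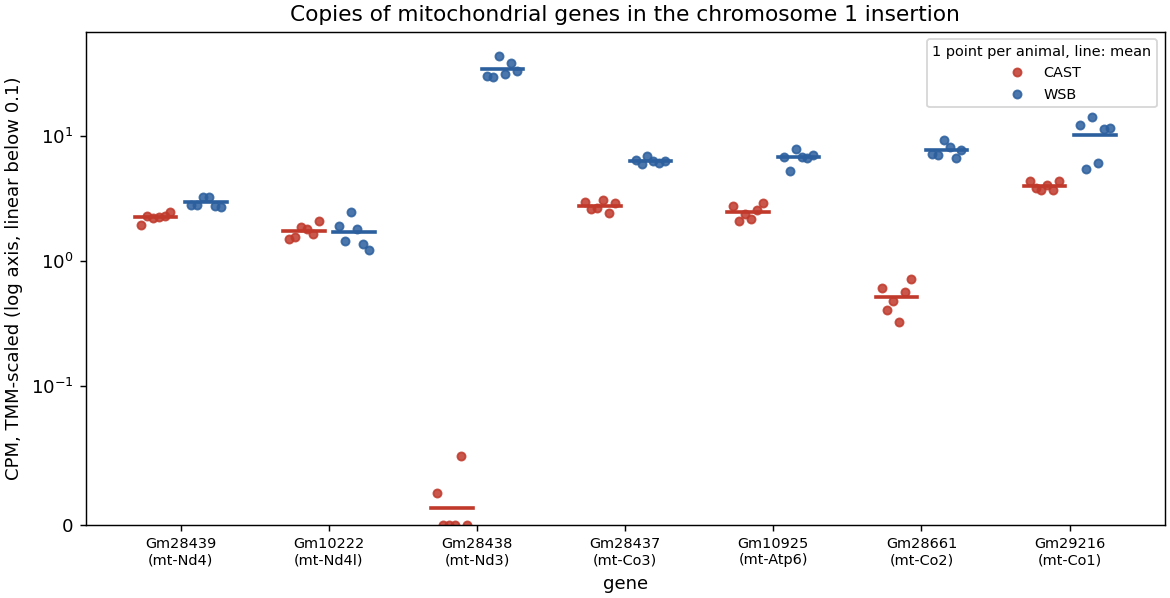
Levels of the 7 mitochondrial copies in the order in which they lie on chromosome 1 (horizontal axis, with the mitochondrial gene in brackets) in CPM on an axis that is logarithmic above 0.1 and linear below. Each point is 1 of 6 animals per strain and the line is the mean; Gm28438 is near 0 in CAST and 29.7 to 43.8 CPM in WSB, while Gm10222 lies at about the same level in both.

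Among members higher in CAST, the largest differences in CPM were in copies of Cdh11, which encodes a classical cadherin, a cell adhesion protein of the surface membrane. Cdh11 lies on chromosome 8 at 102632095 to 102785642. A run of 6 partial copies lies on the same chromosome between 19682449 and 20582771, and a further copy, Gm3365, at 69554802 to 69585162. Over the aligned coding bases the copies other than Gm40466 were 95.2% to 96.4% identical to Cdh11, and 96.2% to 99.7% identical to each other. Gm40466 had 221 comparable bases and was 92.8% identical. A stretch of 90 coding bases (352 to 441 of the Cdh11 coding sequence) is shown because it separates the copies from the parent and, in part, from each other. Of the 90 positions 9 vary, and at 3 of them all 6 copies shown share a base that differs from Cdh11. Capitals mark bases that differ from Cdh11.
Cdh11: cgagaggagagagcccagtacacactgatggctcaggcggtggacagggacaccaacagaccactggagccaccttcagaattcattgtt
Gm6483: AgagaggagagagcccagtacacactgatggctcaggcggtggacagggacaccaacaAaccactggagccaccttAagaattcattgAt
6820431F20Rik: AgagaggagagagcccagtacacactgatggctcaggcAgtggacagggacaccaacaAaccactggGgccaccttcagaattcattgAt
2610005L07Rik: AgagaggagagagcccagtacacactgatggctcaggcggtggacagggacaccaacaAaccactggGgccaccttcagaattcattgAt
Gm21092: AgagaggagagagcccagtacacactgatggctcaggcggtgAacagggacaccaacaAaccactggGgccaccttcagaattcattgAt
Gm3365: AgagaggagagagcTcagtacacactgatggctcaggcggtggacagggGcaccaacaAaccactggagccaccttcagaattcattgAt
Gm21811: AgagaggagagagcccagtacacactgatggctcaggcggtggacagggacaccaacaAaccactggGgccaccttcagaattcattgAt

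Gm6483 (19682449 to 19697736) stood at 26.8, 28.2 and 36.2 CPM in CAST and at 4.0, 4.38 and 5.02 CPM in WSB (lowest, median and highest animal). The ranges were far apart, and the log2 fold change was 2.75 (SE 0.09, edgeR adjusted p = 3.15e-11). 6820431F20Rik, a transcribed copy at 20262613 to 20297432, stood at 35.2, 37.9 and 48.3 CPM in CAST and at 6.50, 7.10 and 7.92 CPM in WSB, a log2 fold change of 2.46 (SE 0.08, adjusted p = 3.89e-11). The highest CAST animal in both was CAST_142, the animal with cerebellar granule cell markers, and without it the log2 fold changes were 2.68 and 2.38. Gm6483 was also the member with the highest level per kilobase of transcript in CAST, 34.4 CPM against 5.11 in WSB.

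The other copies of Cdh11 moved less and in both directions. 2610005L07Rik was higher in CAST by 1.30 (SE 0.13), with 10.3% of its body outside other genes, Gm3365 by 0.45 (SE 0.08) and Gm21092 by 0.37 (SE 0.08). Gm21811 was lower in CAST, at 8.96, 9.63 and 11.2 CPM against 14.8, 16.7 and 18.8 CPM in WSB, a log2 fold change of -0.77 (SE 0.07, adjusted p = 1.89e-06). Gm40466 was not called, at 5.84 ± 0.335 CPM in CAST against 5.71 ± 0.437 CPM in WSB. The order of the copies by counted reads thus differed by strain. Gm21811 held 34.8% of all reads in Cdh11 copies in WSB and 9.31% in CAST, whereas 6820431F20Rik and Gm6483 held 37.2% and 28.2% in CAST and 14.9% and 9.21% in WSB. Of the 32-base words, 94.7% of those of Gm21811, 63.4% of Gm6483 and 24.3% of 6820431F20Rik also occur in other transcripts. The part of shared sequence in these shares was not tested. Cdh11 itself was not called, at 102 ± 16.9 CPM in CAST against 95.2 ± 11.8 CPM in WSB, a log2 fold change of 0.09 (SE 0.11). Summed over the 7 copies, the level was 105 ± 9.74 CPM in CAST against 47.9 ± 3.58 CPM in WSB, so in CAST the copies together held about as many reads as Cdh11. Without Gm6483 and 6820431F20Rik the sums were 36.2 and 36.3 CPM.

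**Figure D3:**
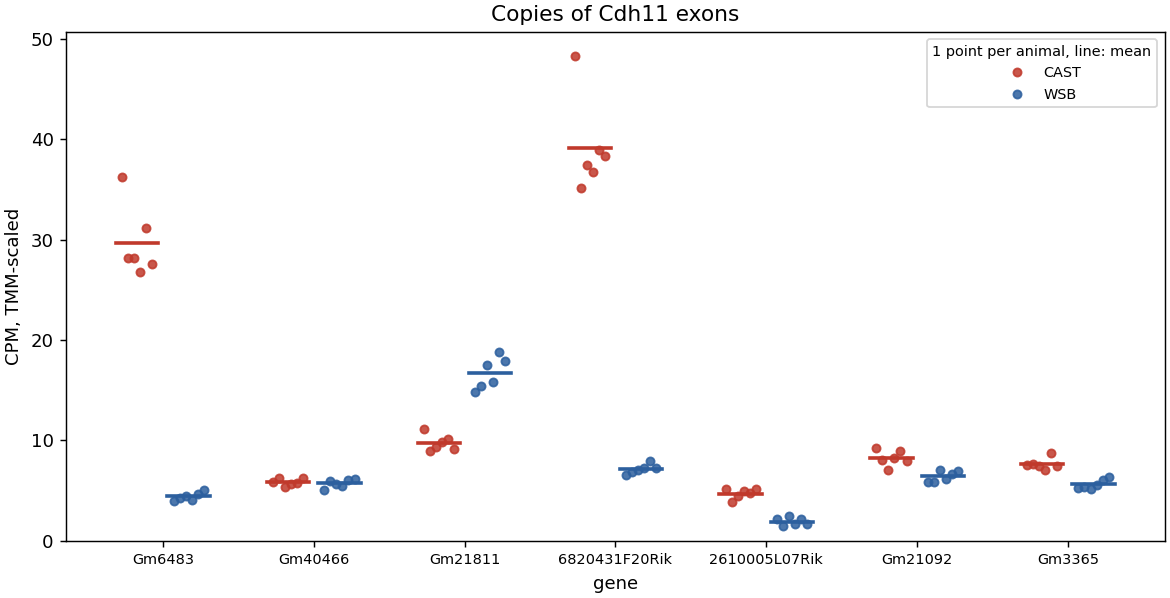
Levels of the 7 copies of Cdh11 exons (horizontal axis) in TMM-scaled CPM on a linear axis from 0, with 1 point per animal and a line for the mean of 6. Gm6483 and 6820431F20Rik lie above 26 CPM in every CAST animal and under 8 in every WSB animal, Gm21811 is the highest copy in WSB, and Gm40466 overlaps.

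Between the Cdh11 copies lies Gm20778 (20035108 to 20040320), whose closest coding gene is Gm21119 at 99.4% identity. Gm20778 was lower in CAST, at 0.174 to 0.277 CPM against 0.809 to 2.47 CPM, a log2 fold change of -3.01 (SE 0.25, adjusted p = 4.93e-07). Gm21119 was higher in CAST by 1.24 (SE 0.18), at a mean of 0.801 CPM against 0.338 CPM, so pseudogene and parent went in opposite directions. Of the 32-base words of Gm20778, 90.8% also occur in other transcripts, and the part of shared sequence in this contrast was not tested.

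A second cluster of copies lies near the end of chromosome 2, among genes for C2H2 zinc finger proteins, a large class of DNA-binding proteins. The 7 members there had 6 tested, of which 2 were higher in CAST, 3 lower and 1 not called, where 21.5% of all genes tested were called higher and 21.2% lower. First in-frame stops are shown for Gm14415 and Gm14400, which went in opposite directions, beside the same stretch of the parent. Capitals mark the stop codon of the copy and the codon at the same place in the parent.
Gm14415: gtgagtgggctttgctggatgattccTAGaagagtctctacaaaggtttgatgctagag
Zfp970: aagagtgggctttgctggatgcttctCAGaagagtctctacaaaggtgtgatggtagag
Gm14400: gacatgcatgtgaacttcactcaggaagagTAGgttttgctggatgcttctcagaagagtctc
Zfp966: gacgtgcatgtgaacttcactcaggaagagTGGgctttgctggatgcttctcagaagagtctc

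Gm14415 (177103564 to 177106488) held 3 reads over 3 animals in CAST and 167 in WSB, where it stood at 0.582, 0.671 and 0.900 CPM. The ratio of WSB to CAST was 59.7, with a 95% counting interval of 20.1 to 293. Its parent Zfp970 went the other way, at 30.5 to 41.6 CPM in CAST against 7.60 to 9.30 CPM in WSB, a log2 fold change of 2.18 (SE 0.08, adjusted p = 1.41e-10). Gm14411 gave the same contrast with its parent Gm14406. Gm14411 stood at 0 to 0.0949 CPM in CAST against 1.03 to 1.54 CPM in WSB (log2 fold change -4.40, SE 0.31), and Gm14406 at 0.474 to 0.830 CPM in CAST against 0 to 0.0302 CPM in WSB (log2 fold change 5.45, SE 0.39). The identity of Gm14415 to Zfp970 was 76.7%, and under a rule of at least 80% identity over 400 bases its parent was instead Zfp965, which is listed at 0 in every animal, so this pair depends on the rule. The identity of Gm14411 to Gm14406 was 87.3%. Of the 32-base words, 75.2% of those of Gm14415 and 74.8% of Gm14411 also occur in other transcripts. The part of shared sequence in these contrasts was not tested.

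Gm14413 was lower in CAST too, at 0.163 ± 0.0437 CPM against 1.26 ± 0.214 CPM (SD, n = 6), a log2 fold change of -2.93 (SE 0.19), and its parent Gm14408, 99.8% identical, held 5 reads in all. Gm14400 (177225473 to 177228963) was higher in CAST, at 0.904, 1.05 and 1.25 CPM against 0.0783, 0.157 and 0.256 CPM, a log2 fold change of 2.72 (SE 0.21, adjusted p = 2.02e-07). Its parent Zfp966 is listed at 0 in every animal. Gm14429 was higher in CAST by 0.74 (SE 0.17) with overlapping ranges, and its parent Gm14443 by 1.86 (SE 0.08). Gm14421 was not called, with a log2 fold change of -0.23 (SE 0.19). Gm14387 was not tested and held 70 reads in CAST and 6 in WSB. Summed over the 7 copies the level was 2.78 ± 0.350 CPM in CAST against 4.49 ± 0.210 CPM in WSB. Of the 32-base words of these copies, 68.3% (Gm14400) to 100% (Gm14413) also occur in other transcripts.

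**Figure D4:**
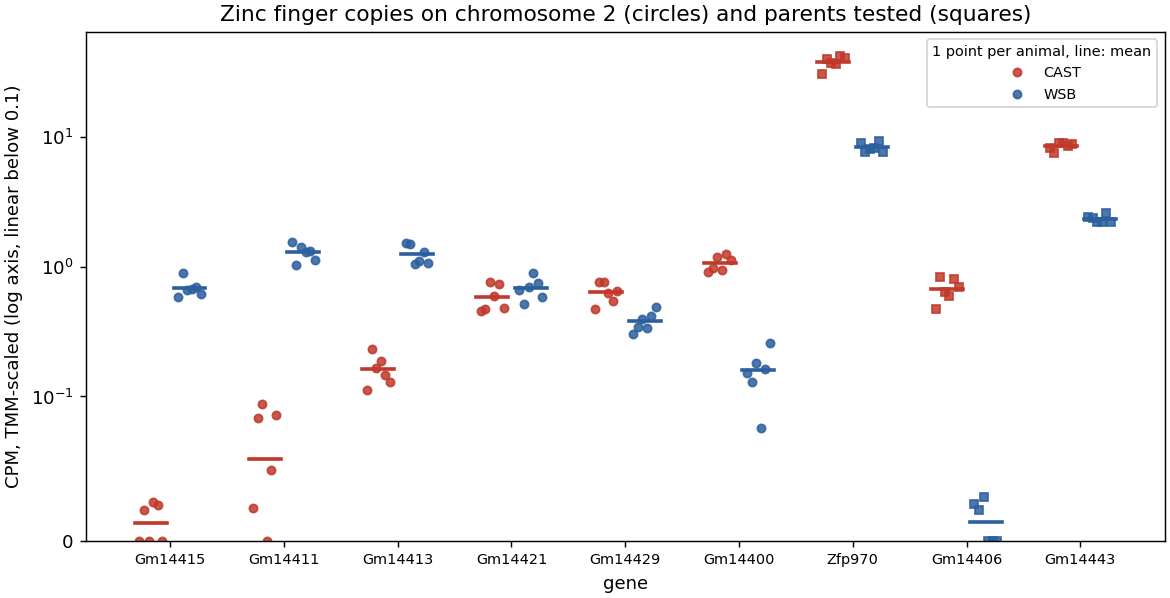
Levels of the 6 zinc finger copies tested on chromosome 2 (circles) and of the 3 parents tested (squares) in CPM, on an axis that is logarithmic above 0.1 and linear below, with 1 point per animal and a line for the mean. Gm14415 and Gm14411 are lower in every CAST animal than in any WSB animal, and their parents Zfp970 (by the 70% rule only) and Gm14406 are higher in every CAST animal.

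Outside these sets, the tested member with the largest fold change upward in CAST was Gm6821, a partial copy of Paqr6, which encodes a membrane receptor of the progestin and adipoQ receptor family. Gm6821 lies 13.2 kb from Paqr6 on chromosome 3 and is 99.1% identical to it. It stood at 1.16, 1.5 and 2.48 CPM in CAST and at 0.0302, 0.0763 and 0.104 CPM in WSB, a log2 fold change of 4.46 (SE 0.29, edgeR adjusted p = 3.28e-08). Paqr6 was not called, with a log2 fold change of 0.36 (SE 0.16, adjusted p = 0.0921). Of the 32-base words of Gm6821, 81.2% also occur in other transcripts, and the part of shared sequence was not tested. Gm8000, a copy of the cytokine signalling suppressor Socs2, was higher in CAST by 4.0 (SE 0.40), while Socs2 was lower by -0.44 (SE 0.06). Gm8540, whose parent Speer4c is listed at 0, stood at 1.69 to 2.32 CPM in CAST against 0.121 to 0.350 CPM in WSB, a log2 fold change of 2.98 (SE 0.20).

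Gm28802 and its parent Als2cr12, 154 kb apart on chromosome 1, were both higher in CAST and to a like degree. Gm28802 stood at 1.29, 1.76 and 2.37 CPM in CAST and 0.177, 0.246 and 0.417 CPM in WSB (log2 fold change 2.73, SE 0.20), and Als2cr12 at 6.46 to 8.26 CPM and 0.845 to 1.66 CPM (log2 fold change 2.55, SE 0.14). Gm232, a copy of the transcription factor subunit gene Gtf3c3 on another chromosome, was higher in CAST by 1.5 (SE 0.16). Gtf3c3 was lower by -0.12 (SE 0.05, adjusted p = 0.0487), a call that was lost under some other settings. Of 3 neighbouring copies of Slco6d1, a gene for an organic anion transporter, Slco6b1 was higher in CAST by 1.45 (SE 0.15) and Gm7135 by 0.73 (SE 0.18), while Gm7133 was lower by -1.79 (SE 0.26). Slco6d1 itself held 19 reads. Gm4759 and Gm8995, copies of the interferon-inducible GTPase gene Gvin1, were higher in CAST by 2.04 (SE 0.30) and 0.98 (SE 0.16), and Gvin1 held 8 reads.

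Gm20775 is annotated on the Y chromosome at 10641257 to 10643107 and is 99.7% identical to Rmi1, a chromosome 13 gene for a partner of the Bloom helicase. It stood at 1.67, 1.86 and 2.39 CPM in CAST and at 0.211, 0.312 and 0.444 CPM in WSB, a log2 fold change of 2.53 (SE 0.17, adjusted p = 6.5e-08). Rmi1 was higher in CAST by 0.29 (SE 0.09) with overlapping ranges. The Y-linked gene Ddx3y was at 61.8 to 83.7 CPM in 6 animals, 3 of each strain, and at most 3.19 CPM in the other 6. Gm20775 did not follow Ddx3y. In the CAST animals with low Ddx3y it stood at 1.67 to 2.02 CPM and in the other CAST animals at 1.78 to 2.39 CPM. In WSB the values were 0.343 to 0.444 CPM with low Ddx3y and 0.211 to 0.282 CPM otherwise. Of the 32-base words of Gm20775, 91.2% also occur in other transcripts.

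Among members lower in CAST, Zfp783 had the largest fold change outside the mitochondrial insertion at a mean log2 CPM of at least 0. Zfp783 is a transcribed pseudogene of a zinc finger gene on chromosome 6 at 47943171 to 47955913. It stood at 0.675, 1.16 and 1.87 CPM in CAST and at 14.7, 18.8 and 20.6 CPM in WSB, a log2 fold change of -3.95 (SE 0.19, edgeR adjusted p = 1.41e-09). Its best coding match, Zfp746, covers 7.60% of the transcript and was not called, with a log2 fold change of 0.07 (SE 0.05). Of the 32-base words of Zfp783, 6.5% occur in other transcripts.

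Catspere1 and its neighbour Catspere2, 21.2 kb away on chromosome 1, are copies of a gene for a subunit of the sperm calcium channel CatSper. Catspere1 stood at 1.08, 1.57 and 2.26 CPM in CAST and at 8.10, 8.49 and 8.74 CPM in WSB, a log2 fold change of -2.41 (SE 0.15). Catspere2 was lower in CAST as well, at 45.9 to 49.6 CPM against 109 to 117 CPM, a log2 fold change of -1.25 (SE 0.03, adjusted p = 5.72e-12). Serpina3h, a copy among the serine protease inhibitor genes of chromosome 12, stood at 0.0434, 0.231 and 0.344 CPM in CAST and at 1.46, 1.62 and 2.47 CPM in WSB (log2 fold change -3.0, SE 0.32). Gm45118, which had no parent by the rule, was lower in CAST by a log2 fold change of -2.43 (SE 0.13). Gm49376, at 98.9% identity to 1700047I17Rik2, was lower by -2.44 (SE 0.19), and that parent held 3 reads. Cfhr3, related to complement factor H, was lower by -2.61 (SE 0.38) at 0.0727 ± 0.0521 CPM in CAST against 0.445 ± 0.161 CPM in WSB.

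Gm2420 is a copy of Sfi1, which encodes a protein of the centrosome, and the pair went in opposite directions. An in-frame stop of Gm2420 is shown beside Sfi1, with the stop and the codon of the parent in capitals.
Gm2420: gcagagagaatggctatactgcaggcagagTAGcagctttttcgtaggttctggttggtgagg
Sfi1: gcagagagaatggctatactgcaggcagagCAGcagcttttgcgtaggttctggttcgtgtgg

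Gm2420 was lower in CAST, at 3.37, 3.77 and 4.67 CPM against 5.22, 6.20 and 8.20 CPM in WSB, a log2 fold change of -0.72 (SE 0.14, adjusted p = 0.000722). Sfi1 stood at 444 ± 36.3 CPM in CAST against 76.2 ± 7.57 CPM in WSB (SD, n = 6), a log2 fold change of 2.54 (SE 0.08, adjusted p = 2.06e-11). The alignment of Gm2420 to Sfi1 held 5 in-frame stops and 8 short frameshifts at 94.8% identity.

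The next members are transcribed copies chosen for their abundance or their established symbol. AW822252, a transcribed copy of the small membrane protein gene Smim10l2a on the X chromosome, held the most reads of any member (14065). It stood at 15.0, 17.7 and 20.5 CPM in CAST and at 28.3, 40.2 and 47.5 CPM in WSB, a log2 fold change of -1.14 (SE 0.11), and Smim10l2a was lower by -0.42 (SE 0.09). Zcwpw2 was higher in CAST by 0.24 (SE 0.07) at 21.4 ± 0.942 CPM against 18.2 ± 1.95 CPM, with overlapping ranges. Gm10033, whose best match is the zinc finger gene Zfp950, was higher by 0.53 (SE 0.06) with separate ranges. Zkscan7, at 11.7 ± 1.15 CPM against 5.66 ± 0.800 CPM, was higher in CAST by 1.04 (SE 0.10), and Zfp264 by 1.70 (SE 0.27). Zfp939 was lower by -0.22 (SE 0.07, adjusted p = 0.0245), and this call was lost without CAST_170 (adjusted p = 0.0575).

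The 3 most abundant members that were not called were Gm7729, Gm40466 and Gm1818. Gm7729, a copy of the RNA-binding protein gene Hnrnpa1, stood at 10.7 ± 1.97 CPM in CAST against 10.9 ± 0.630 CPM in WSB. Gm1818, a copy of the mitochondrial transcription factor gene Tfb2m, stood at 5.55 ± 0.630 CPM and 5.36 ± 0.556 CPM (log2 fold change 0.05, SE 0.10). Gm7729 is 99.4% and Gm1818 is 99.3% identical to its parent, and both lie on another chromosome than the parent. Both have 2 exons, against 9 in Hnrnpa1 and 8 in Tfb2m. The named copies Kdm4dl, Clec2j and Nlrp4g were not called either, with log2 fold changes of 0.11 (SE 0.22), 0.17 (SE 0.21) and 0.15 (SE 0.37), and these SEs leave room for a moderate difference in either direction.

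Reads in every animal of a strain, at least 10, and in none of the other strain were found for 2 members (0.175% of the 20015 genes with at least 60 reads showed this). Gm8032 held 10 to 19 reads in each CAST animal, at 0.353 ± 0.113 CPM, and none in WSB. Against a floor of 3 reads over the 6 WSB animals it was at least 28.2-fold higher in CAST. Gm4856 held 17 to 31 reads in each WSB animal, at 0.606 ± 0.135 CPM, and none in CAST, which makes it at least 52.0-fold lower in CAST. Their parents 1700049E17Rik1 and C130079G13Rik held 0 and 1 reads.

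The parents were read from the same fit. Of the 91 parents 59 were tested, and 15 were called higher and 21 lower in CAST, 36 of 59 (61.0%) against the 42.7% of all genes, with 18.6% called at 2-fold or more. Another 15 parents were listed at 0 reads. Members and parents were both tested in 61 pairs, in which several members can share a parent. No limit of 50% of the transcript was set for these pairs, so they include short matches such as Zfp783 with Zfp746 (7.60%). Of 18 tested members with a match under 50%, 15 were called (83.3%, against 71.6% of all members tested). The median absolute log2 fold change was 0.77 over these members and 0.38 over their parents, and the member had the larger value in 40 of 61 pairs. These values are a description, with no test of the difference, since members such as Gm14411 and Gm14415 passed the filter through their reads in WSB. Of the 45 members called in these pairs, 21 had a parent that was not called. In 24 pairs both were called, 12 in the same direction and 12 in opposite directions. Pairs in the same direction included Gm28802 with Als2cr12, Catspere1 with Catspere2 and Gm15697 with the mitotic kinesin gene Kif11 (-2.69 and -0.53). Pairs in opposite directions included Gm14415 with Zfp970 (by the 70% rule only), Gm14411 with Gm14406, Gm20778 with Gm21119, Gm2420 with Sfi1 and Gm8000 with Socs2.

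**Figure D5:**
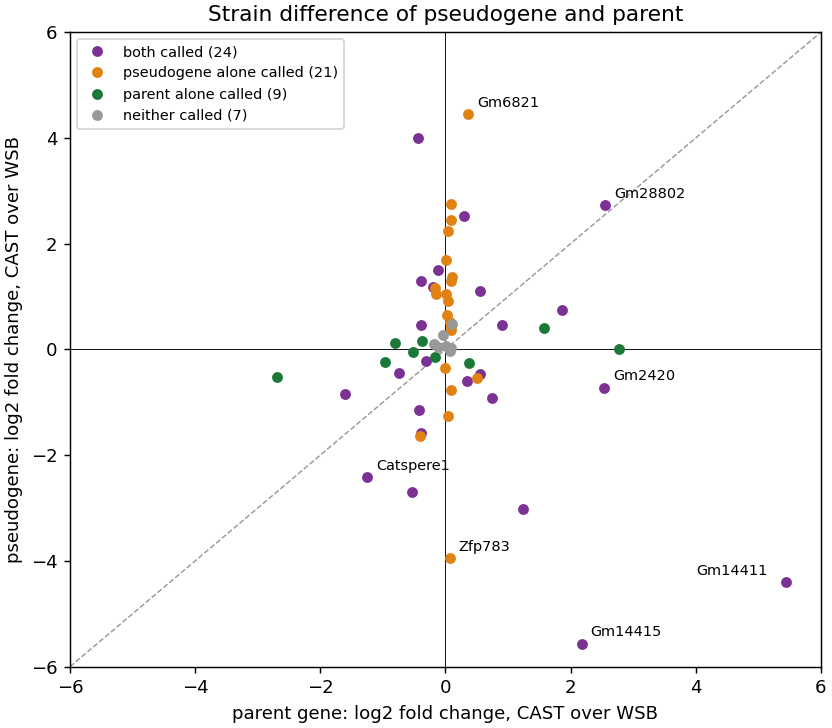
Each of 61 points is a pseudogene and its parent, with the parent's log2 fold change of CAST over WSB on the horizontal axis, the pseudogene's on the vertical axis and the colour for which of them was called. Most points lie near the vertical line at 0, where the parent differs little, and Gm14411, Gm14415 (its parent by the 70% rule only) and Gm2420 lie where the parent is higher and the pseudogene lower in CAST.

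By position and by family, called members went in both directions. Each count below stands beside 21.5% of all genes tested called higher and 21.2% called lower. Position was read only for nuclear parents that matched at least 50% of the transcript. Of 29 tested members with such a parent within 1 Mb, 9 were higher, 10 lower and 10 not called. Of 20 with such a parent on another chromosome, 5 were higher, 8 lower and 7 not called. Of 8 tested members whose parents have a Zfp symbol, 4 were higher and 3 lower. Gm14411, Gm14413 and Gm14429 of the chromosome 2 cluster are not among them, since their parents have Gm symbols. Of 4 with solute carrier parents, 2 were higher and 1 lower. Transcribed unprocessed pseudogenes had 13 higher and 11 lower of 32 tested, and the unprocessed class had 22 higher and 27 lower of 70. Members with at least 80% of their 32-base words in other transcripts had 6 higher and 12 lower of 24 tested, and those with under 20% had 17 higher and 13 lower of 40. The differences between these counts were not tested.

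At the edge of the read minimum, 4933416I08Rik (23 reads in CAST and 37 in WSB), Gm16332 (45 and 15) and Gm13230 (38 and 25) lay just inside. Gm12106 (11 and 44), Gm2399 (54 and 2) and Gm2436 (0 and 56) lay just outside. None of the 3 just inside passed the expression filter. Of the 19 members not tested, Gm6606, a match to the sphingolipid desaturase gene Degs1, stood at 0.016 CPM in CAST against 0.320 CPM in WSB, and Gm5581 held 61 reads in CAST and 2 in WSB, a ratio of 28.4 (95% counting interval 7.54 to 240).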

How the data were processed

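Brain RNA of 12 mice was sequenced on lanes 5 and 6. The authors deposited whole-number read counts per gene, not normalized, without a header and with a gene class. Per the submitters' processing notes, cutadapt, TopHat2 2.1.1, HTSeq and DESeq2 were used. The genome build is not given in the sources used here. Kept out were the 5 counters that name no gene (for example 11.1% to 16.5% of alignments in more than 1 feature). GENCODE M21 (GRCm38) matched 53360 identifiers and gave symbols, coordinates and transcripts. Lanes were summed per animal. Strains were compared with edgeR 4.0.16 (TMM, filterByExpr, robust quasi-likelihood, Benjamini-Hochberg over 18425 genes). The fit was tested on simulated data (18255 genes): 60% of 1.5-fold, 86% of 2-fold and 98% of 4-fold changes were recovered. Parents were found with blastn 2.17.0, plus strand. SE is the log2 fold change divided by the square root of F. Strand use in counting is not stated, so a count may hold reads of a gene that overlaps on either strand.

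The members, lists and alternatives were chosen with earlier results of these data known. Named members were the 8 largest fold changes in each direction (mean log2 CPM of at least 0, separate ranges), the 8 most abundant, the 4 smallest p-values in each direction, the 3 most abundant not called, those read in 1 strain, those with established symbols and the 2 longest runs; others were chosen after their values were seen. Alternatives were DESeq2 1.42.0 and its size factors, library totals, no filter, single lanes, leaving out animals, stricter reads, overlap and parent rules.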

Additional observations from a re-analysis of the deposited data

Results flagged for a closer look

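In each strain the highest or lowest of 6 animals was set against the others for 76 groups of values, and an animal was marked where its gap to the nearest other exceeded 0.625 of the range. Chance marks about 1 in 20 groups, and 6 of 76 were marked. CAST_142, the animal with cerebellar granule cell markers, was high for 6820431F20Rik (48.33 CPM, others 35.2 to 38.98) and Gm7729 (14.41 CPM, others 8.588 to 10.77), and the log2 fold changes without it were 2.38 and -0.13. CAST_202 was high for Nlrp4g at 0.8347 CPM (others 0.2033 to 0.4043). WSB_138 was high for Gm232 at 1.177 CPM (others 0.606 to 0.7713), and WSB_169 for Serpina3h at 2.47 CPM (others 1.461 to 1.689). The share of gene reads held by the members was low in WSB_120, at 0.03402% (others 0.03676% to 0.03823%).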

How the results depend on the processing

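The counts of members called (35 higher, 38 lower) changed by over 1.5 times under a single alternative: among members with under 20% of their 32-base words in other transcripts, of which fewer were tested (40), 17 were higher and 13 lower. Leaving out each animal gave 35 to 37 higher and 37 to 42 lower for the members, and 15 to 18 higher and 18 to 22 lower for the parents. DESeq2 called 43 members higher and 42 lower (9564 of all genes, against 7866 by edgeR), and single lanes gave 27 higher and 27 to 30 lower (6567 to 6617 of all genes). Without CAST_142 and WSB_100 together, 36 were higher and 36 lower (8624 of all genes). Gm8032 and Gm4856 kept reads in 1 strain without WSB_100. Of 997 values for 53 named genes, 972 kept direction and call, 21 lost the call, 4 gained it and 0 reversed; those that moved were Zfp939, Gtf3c3, Paqr6, Zfp950, Zfp810, Tfb2m and Clec2d. Depth limits members of few reads, of which 19 were not tested. No paired analysis was possible because the strains share no animal numbers.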
